A study of Arabidopsis thaliana with 5 samples.

Results

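A group of 28 of the 22746 probe sets measured in *Arabidopsis thaliana* floral buds was lower in every *ask1* array than in every L*er* array. A probe set entered the group when its highest *ask1* log2 signal lay at least 0.5 below its lowest L*er* signal and its L*er* signals differed by less than 0.8. A probe set is a group of short probes on the Affymetrix ATH1 array, and its signal is a log2 value, so a difference of 1 stands for 2-fold. The criteria were met by 30 probe sets (0.132% of all), and those of *HIS1-3* and AT1G25550 were left out of the group by its definition. AT4G33980, also excluded by name, did not meet them. Because the members were chosen by these signals, all member values below are a description and carry no test.

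The mutant plants were homozygous for *ask1* in the L*er* background, and the wild type was L*er* itself. Both were grown on soil without treatment for about 5 to 6 weeks. Closed buds of different stages were harvested together with the meristem, so a sample mixes stages. Mutants were recognized by their appearance in segregating families. The table holds 3 *ask1* and 2 L*er* arrays, which the labels call biological replicates. The study's methods name further L*er* replicates, which were not analysed here.

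ASK1 is a subunit of SCF complexes, ubiquitin ligases in which an F-box protein picks the substrate and a SKP1-like protein joins it to the cullin. Plastids and mitochondria keep small genomes of their own, which encode a few subunits of their ATP synthases, electron carriers and ribosomes, while most other subunits come from nuclear genes. Plastid genes are largely transcribed together in operons inherited from a cyanobacterial ancestor.

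The 5 arrays had median log2 signals from 7.07 to 7.18, and 22.8% to 24.5% of probe sets per array were under 5, a level at which background compresses ratios. *ask1* replicate 2 correlated less with *ask1* replicates 1 and 3 (Pearson's r = 0.984 with each, across all probe sets) than these did with each other (r = 0.996). It correlated with L*er* replicates 1 and 2 at r = 0.988 and 0.989. Of the tapetum markers, 2 of 9 had a probe set named here, and their summed level on the log2 scale was 9.05, 8.69 and 9.43 in *ask1* replicates 1 to 3, against 11.50 and 8.41 in L*er* replicates 1 and 2. *A9*, the stronger contributor, thus was high in L*er* replicate 1 alone, and the genotypes overlapped. None of the 9 pollen and 7 floral organ markers had a named probe set, 1 of 5 meiocyte markers and 1 of 6 green tissue markers did, and the labelled tissue could not be checked further. Across all probe sets, limma called 2 lower in *ask1* at an adjusted p under 0.05 (0.00879%). Before adjustment, 679 were lower at that threshold (2.99%). The probe sets of *ASK1* itself carry no name in the annotation used here, so its level is not reported.

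Of the 28 members, 14 were paired with a single gene, 4 with several genes and 10 with none. The share without a name was 35.7% among members and 38.4% among all probe sets. Mean log2 ratios of *ask1* over L*er* ranged from -4.65 to -0.59 among the members, with a median of -0.86, beside a median of -0.01 over all probe sets. At least 2-fold lower were 9 of the 28. Also 9 members met both 2-fold and an unadjusted limma p under 0.05, criteria that 29 of all probe sets met (0.127%), and nothing is read from this because the same contrast chose the members. No member had a mean signal under 5, although 5404 of all probe sets did.

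The spread of the members within a genotype was near that of all probe sets, although the criteria cap it in L*er*. Their median range over the *ask1* arrays was 0.24, as for all probe sets, and their median L*er* difference was 0.21 beside 0.16. The SD of a member ranged from 0.03 to 0.45 in *ask1* (n = 3) and from 0.01 to 0.48 in L*er* (n = 2). *ask1* replicate 2 was the highest *ask1* array in 13 members, replicate 1 in 10 and replicate 3 in 5. L*er* replicate 1 was the higher wild-type array in 13 members and replicate 2 in 15. Neither L*er* array was thus the high one throughout. Omission of single arrays shifted a ratio by at most 0.34, in the unnamed probe set 261285_at, and the criteria fix the direction of all ratios.

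**Figure D1:**
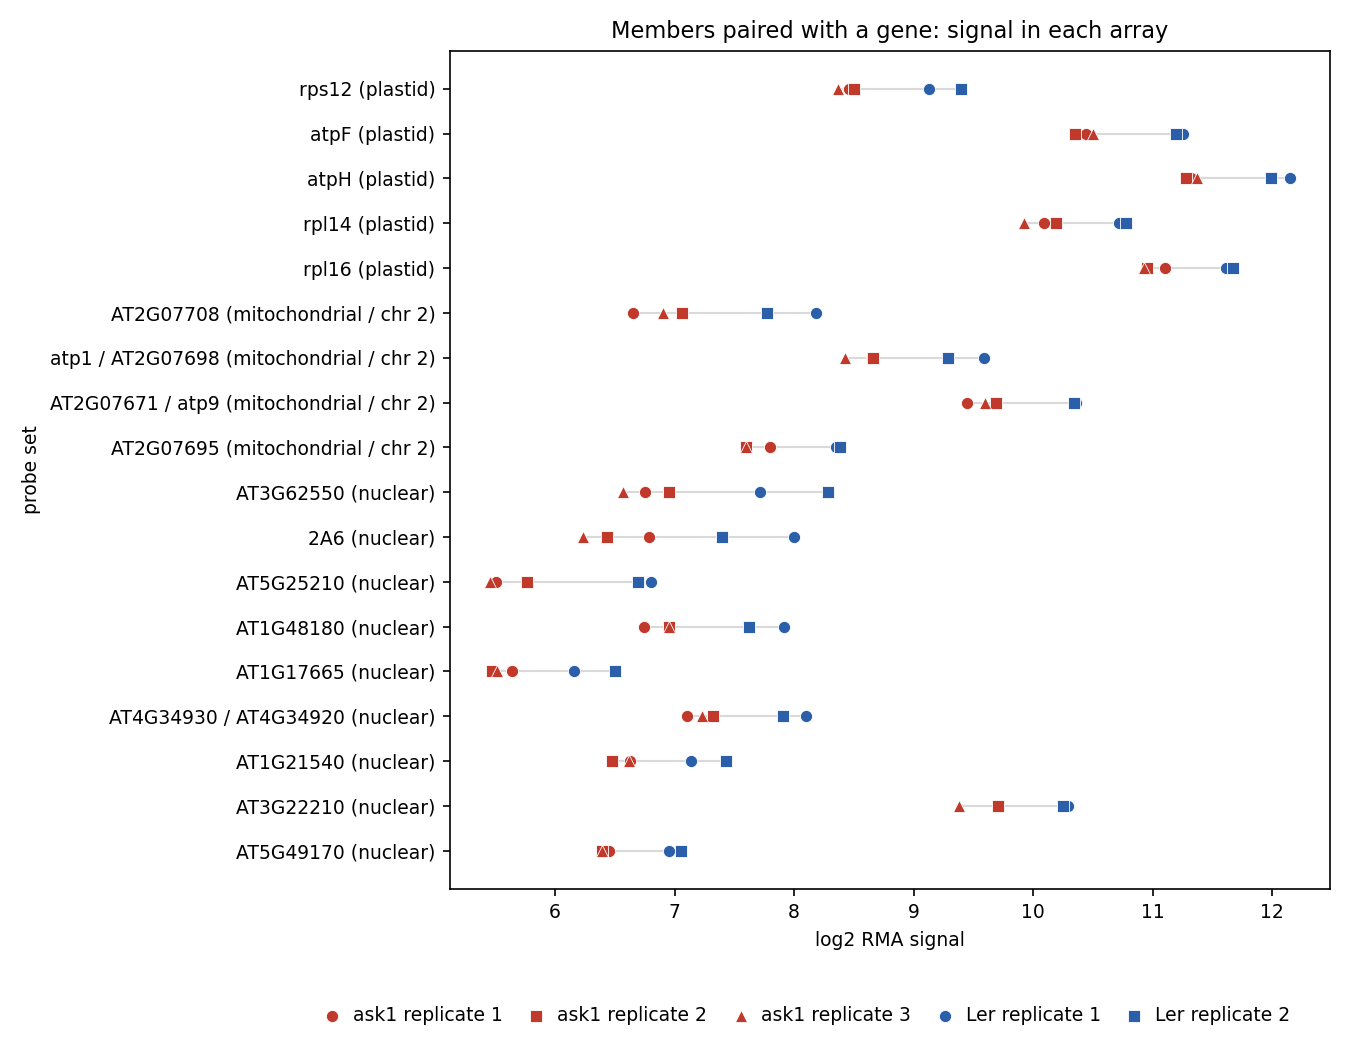
Log2 RMA signal (horizontal axis) of the 18 members paired with genes, by row, in *ask1* replicates 1 to 3 (red circle, square and triangle) and L*er* replicates 1 and 2 (blue circle and square). The red symbols lie left of the blue ones in every row because the members were chosen that way, and the mean distance is smallest in AT5G49170 (-0.59) and largest in AT3G62550 (-1.24).

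Of the 18 members paired with genes, 9 belonged to the organelle genomes or to their copy in the nucleus. The plastid genome accounted for 5, which is 17.9% of the 28 members, while plastid probe sets made up 0.339% of the array. They fell into 2 functions: subunits of the plastid ATP synthase (*atpF* and *atpH*) and proteins of the plastid ribosome (*rps12*, *rpl14* and *rpl16*). In whole buds, fewer plastid-rich cells and less plastid RNA per cell cannot be told apart.

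*atpF*, which encodes subunit b of the membrane part of the plastid ATP synthase, had log2 signals of 10.44, 10.35 and 10.50 in *ask1* replicates 1 to 3, against 11.26 and 11.20 in L*er* replicates 1 and 2. Its mean ratio was -0.80, or 1.74-fold lower in *ask1*, and the arrays of each genotype lay closer to each other than to the other genotype. *atpH*, the gene of the ring-forming subunit c, had 11.32, 11.28 and 11.37 in *ask1* and 12.15 and 11.99 in L*er*, a ratio of -0.74. Both genes lie side by side in the plastid genome, *atpF* at 11529 to 12798 and *atpH* at 13262 to 13507 (RefSeq annotation of TAIR10.1, as for all positions here). They belong to an operon with *rps2*, *atpI* and *atpA*.

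The other genes of that operon were measured but did not meet the criteria. *atpA*, the alpha subunit of the catalytic part, read 12.05, 11.97 and 12.09 in *ask1* and 12.48 and 12.47 in L*er*, with a gap of 0.38 between the closest arrays. It was thus also lower in every *ask1* array, by a smaller margin. *atpI*, subunit a, read 5.98, 6.30 and 6.64 in *ask1* and 7.38 and 6.46 in L*er*, so its groups overlapped through *ask1* replicate 3 and L*er* replicate 2. *rps2*, at the head of the operon, had a mean ratio of -0.04. *atpB* and *atpE*, which encode further ATP synthase subunits from another place in the plastid genome, had ratios of -0.18 and -0.03. Over the 6 plastid ATP synthase probe sets the median ratio was -0.53, with the 2 members included. All 6 ratios were below 0, which the criteria fix for the members *atpF* and *atpH*. *atpI* and *atpA* had -0.62 and -0.44.

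The ribosomal member with the lowest ratio was *rps12*, a gene of the small subunit whose transcripts are joined by trans-splicing. Its probe set 244939_at had 8.46, 8.50 and 8.37 in *ask1* and 9.13 and 9.40 in L*er*, a ratio of -0.82 (1.76-fold lower). A further *rps12* probe set, 244940_at, had 11.06, 10.89 and 10.82 in *ask1* and 11.26 and 11.56 in L*er*, a ratio of -0.48. Its arrays kept the same order of genotypes, with a gap of 0.20 that left it outside the group. The *rps12* entry used for its place lies at plastid positions 69611 to 69724.

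*rpl14* and *rpl16*, genes of the large ribosomal subunit, are neighbors at 80696 to 81064 and 81189 to 82652. *rpl14* had 10.09, 10.19 and 9.93 in *ask1* and 10.72 and 10.78 in L*er*, a ratio of -0.68. *rpl16* had 11.10, 10.95 and 10.92 in *ask1* and 11.61 and 11.67 in L*er*, a ratio of -0.65. In both genes the L*er* arrays differed by 0.06. The flanking genes of the same cluster had ratios closer to 0, with -0.06 for *rps3*, -0.20 for *rpl22* and for *rps19*, -0.38 for *rpl36* and -0.06 for *rpoA*. As in the ATP synthase operon, adjacent genes therefore differed in their ratios.

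Lower means were common among plastid probe sets that were no members. Of the 72 others, 60 had a ratio below 0 (83.3%, beside 52.5% of all probe sets), and 28 were lower in every *ask1* array than in every L*er* array (38.9%, beside 10.7% of all probe sets). Their median ratio was -0.23. These probe sets share RNA extracts and a small genome, so they are not independent of the 5 members. Over all 77 plastid probe sets the median ratio was -0.28, and it was -0.12 without L*er* replicate 2. Their median signal was 10.43, 10.32 and 10.26 in *ask1* replicates 1 to 3, against 10.50 and 10.78 in L*er* replicates 1 and 2. L*er* replicate 2 stood above the other arrays, while L*er* replicate 1 lay close to *ask1* replicate 1.

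The plastid gene classes, which were drawn up after the values were seen, differed in their medians. The 20 ribosomal probe sets had a median ratio of -0.20 with 19 below 0. These include both probe sets of *rps12* and the 3 ribosomal members, whose ratios the criteria fix below 0. The 20 photosystem probe sets, with 0 members, had -0.34 with 17 below 0. The 4 probe sets of the plastid RNA polymerase had -0.40. The 11 of the NDH complex, which cycles electrons around photosystem I, had -0.17, and the 6 of the cytochrome b6f complex had 0.01. Lower ratios than those of some members were seen for *rbcL*, the large subunit of Rubisco (-0.78), and *accD*, a subunit of acetyl-CoA carboxylase (-0.79), whose arrays lay too close together for the criteria. In the other direction stood *ndhF* (0.98) and *rps14* (0.79). Ratios above 0 were found in 12 of the 77 probe sets.

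**Figure D2:**
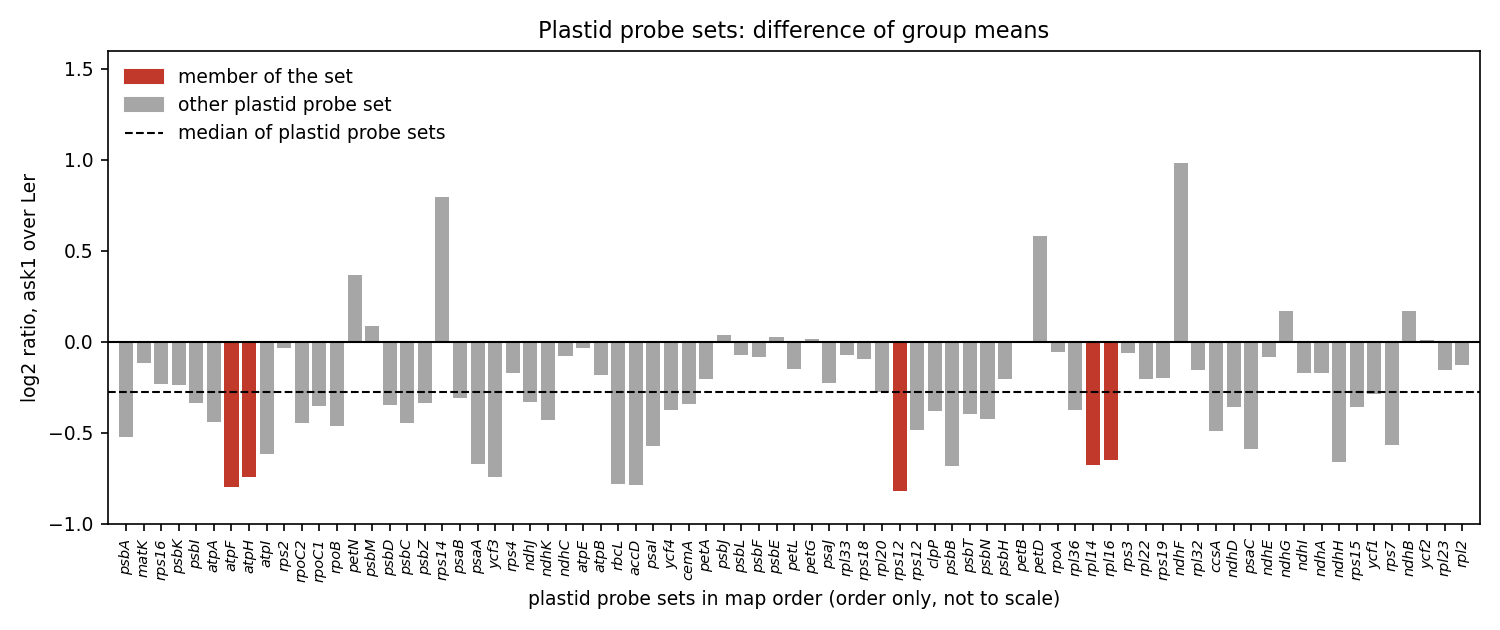
Log2 ratio of *ask1* over L*er* (difference of group means, vertical axis) for the 77 plastid probe sets in map order (horizontal axis, not to scale). Red bars are the 5 members, gray bars the other 72, and the dashed line is the median of all 77 (-0.28), with *ndhF* (0.98) highest.

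Nuclear genes that supply subunits to the same plastid complexes had ratios near 0, as far as they were measured. Lists of these genes were drawn up after the values were seen. Of 4 nuclear genes of the plastid ATP synthase, 2 had a named probe set, *ATPC1* with a ratio of 0.01 and *ATPC2* with -0.15. Of 29 nuclear genes of plastid ribosomal proteins, 6 were measured, with ratios from -0.22 to 0.02 and a median of -0.04, which was 0.06 without *ask1* replicate 1 and -0.16 without *ask1* replicate 2. *RCA*, the nuclear gene of Rubisco activase and the green tissue marker that could be measured, had 12.27, 12.77 and 12.51 in *ask1* and 12.47 and 12.16 in L*er*. Its groups overlapped, with a ratio of 0.20.

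The other 4 organelle-related members were probe sets of genes on chromosome 2 that resemble mitochondrial genes. In the Columbia reference, a copy of much of the mitochondrial genome lies there in the nuclear DNA. All 4 probe sets are of the type that Affymetrix marks as shared between transcripts, so RNA from the nuclear copy and from the mitochondrion cannot be separated. Whether L*er* carries the same insertion was not tested. Such shared probe sets were 5 of the 28 members (17.9%) and 4.11% of all probe sets.

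The probe set of *atp1* and AT2G07698, the alpha subunit of the mitochondrial ATP synthase, had 8.65, 8.66 and 8.43 in *ask1* and 9.59 and 9.29 in L*er*, a ratio of -0.86 (1.82-fold lower). That of *atp9* and AT2G07671, its ring-forming subunit c, had 9.44, 9.69 and 9.60 in *ask1* and 10.35 in both L*er* arrays, a ratio of -0.77. Subunit c of both the plastid and the mitochondrial enzyme was thus among the members. AT2G07695, which resembles subunit II of cytochrome c oxidase, had 7.80, 7.60 and 7.60 in *ask1* and 8.35 and 8.38 in L*er*, a ratio of -0.70. AT2G07708, with no assigned function, had 6.65, 7.06 and 6.90 in *ask1* and 8.18 and 7.77 in L*er*. With -1.11 its ratio was the lowest of these 4.

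On chromosome 2, AT2G07671 lies at 3251566 to 3252341, AT2G07695 at 3345929 to 3347826, AT2G07698 at 3361463 to 3364127 and AT2G07708 at 3386851 to 3388160. The starts of these 4 genes span 135 kb, and 19 probe sets have a gene in that span. Not all moved together. The ratio was below 0 in 11 of the 19 (57.9%, beside 52.5% of all probe sets), with a median of -0.10. These 11 include the 4 members, and the highest ratio was 0.43 in AT2G07678. AT2G07707, whose start lies 0.559 kb from that of AT2G07708, had a ratio of -0.54 and did not meet the criteria.

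**Figure D3:**
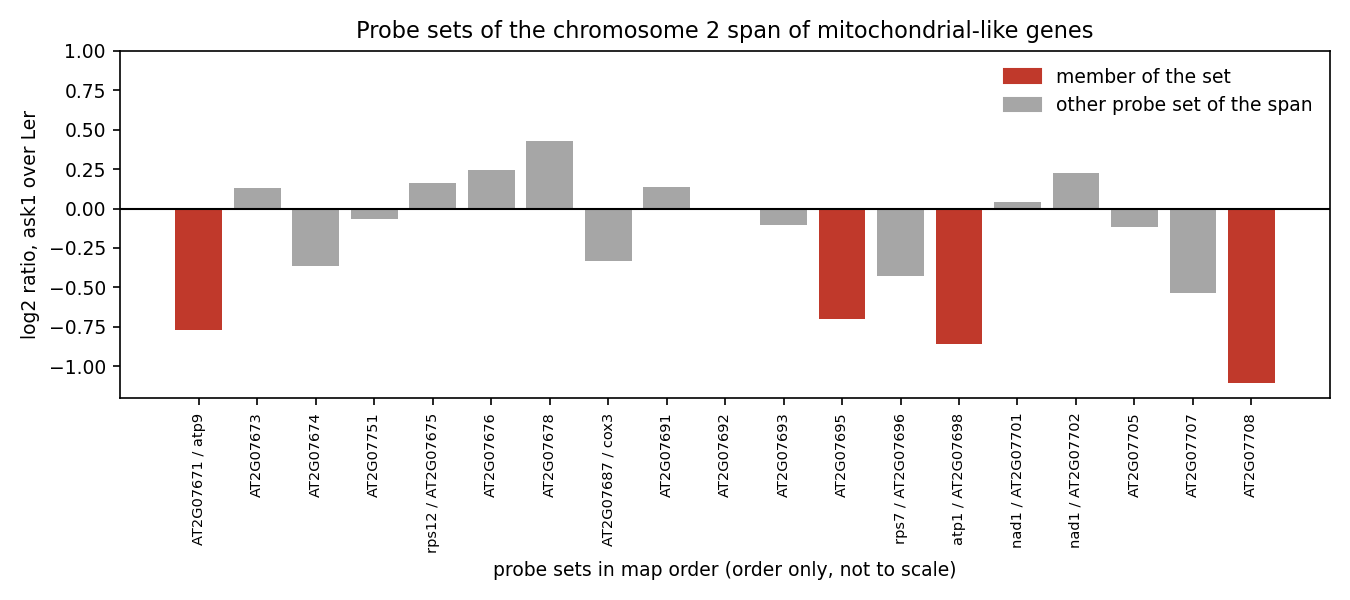
Log2 ratio of *ask1* over L*er* (vertical axis) for the 19 probe sets of the chromosome 2 span with mitochondrial-like genes, in map order (horizontal axis, not to scale). The 4 members (red) range from -1.11 to -0.70 and lie among others (gray) that reach 0.43.

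Among the 30 probe sets whose gene symbol matches a mitochondrial gene, 2 were members (6.67%, beside 0.123% of all probe sets). Of the other 28, 22 had a ratio below 0 (78.6%, beside 52.5% of all probe sets), with a median of -0.27. Lower in every *ask1* array than in every L*er* array were 10 (35.7%, beside 10.7% of all probe sets). These 28 share RNA extracts with the 2 members, so they are not independent of them. The median signal of all 30 was 6.09, 6.91 and 6.89 in *ask1*, against 6.80 and 6.87 in L*er*. *ask1* replicate 1 was the low array, and the other four overlapped between genotypes. AT5G47030, the only nuclear gene of the mitochondrial ATP synthase measured among 8 listed after the values were seen, had a ratio of -0.05.

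The remaining 9 gene-paired members were nuclear genes outside that span, 8 probe sets with a single gene and 1 shared by a gene pair. AT3G62550, of the universal stress protein family, had 6.76, 6.95 and 6.57 in *ask1* and 7.71 and 8.28 in L*er*. Its ratio of -1.24 (2.36-fold lower) was the lowest among named members, and it was -0.95 without L*er* replicate 2. The gene lies on chromosome 3 at 23135630 to 23137173. AT5G25210, whose function is not known, had 5.51, 5.77 and 5.45 in *ask1* and 6.80 and 6.70 in L*er*, a ratio of -1.17 with tight replicates. It lies on chromosome 5 at 8723912 to 8725817.

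*2A6* (AT1G03410), of the family of oxygenases that use 2-oxoglutarate and iron, had 6.79, 6.44 and 6.24 in *ask1* and 8.00 and 7.40 in L*er* with probe set 264824_at. The ratio was -1.21 (2.32-fold lower). The gene lies on chromosome 1 at 844436 to 847683, and 1020 of the 1076 bases of the pseudogene *Sadhu4-2* (AT1G03420) fall within it, so the transcript behind this signal is not settled. A further *2A6* probe set, 264826_at, had 5.04, 4.93 and 4.85 in *ask1* and 5.33 and 5.16 in L*er*. Its genotypes did not overlap either, but its ratio was -0.31. These signals lie near 5, where background compresses ratios, so the 2 probe sets cannot be compared by size of ratio. AT1G03400, a neighbor from the same oxygenase family, had 5.74, 6.88 and 5.66 in *ask1* and 7.10 and 6.40 in L*er*, where *ask1* replicate 2 rose above L*er* replicate 2.

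Members paired with genes of other enzyme families followed with smaller differences. AT1G21540, of the family of AMP-forming acyl-activating enzymes, had 6.63, 6.48 and 6.61 in *ask1* and 7.14 and 7.43 in L*er*, a ratio of -0.71 (chromosome 1, 7548450 to 7550741). The shared probe set of AT4G34930 and AT4G34920, neighboring genes that resemble phospholipase C phosphodiesterases, had 7.10, 7.32 and 7.23 in *ask1* and 8.10 and 7.91 in L*er*, a ratio of -0.79. They lie on chromosome 4 at 16637322 to 16638962 and 16635504 to 16636983, and the probe set cannot tell one from the other.

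For the last 4 nuclear members no function is given here. AT1G48180 (chromosome 1, 17792343 to 17794460) had 6.74, 6.95 and 6.95 in *ask1* and 7.92 and 7.63 in L*er*, a ratio of -0.89. AT1G17665 (chromosome 1, 6072153 to 6074525) had 5.64, 5.47 and 5.51 in *ask1* and 6.16 and 6.50 in L*er*, a ratio of -0.79. Both had a wider spread in L*er* than in *ask1*. AT3G22210 (chromosome 3, 7838784 to 7839467) had 9.71, 9.70 and 9.38 in *ask1* and 10.29 and 10.25 in L*er*, a ratio of -0.67. It overlaps *POP2*, the gene of a transaminase of gamma-aminobutyrate, which has no named probe set here. AT5G49170 (chromosome 5, 19938540 to 19939797) had 6.45, 6.39 and 6.39 in *ask1* and 6.95 and 7.05 in L*er*, a ratio of -0.59.

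By chromosome, the single-gene nuclear members numbered 4, 2, 2, 0 and 2 on chromosomes 1 to 5. These hold 25.8%, 16.5%, 20.5%, 14.7% and 22.5% of the nuclear probe sets paired with a single gene. The 2 on chromosome 2 are AT2G07695 and AT2G07708, whose shared probe sets cannot separate nuclear from mitochondrial RNA. *ASK1* (AT1G75950) lies on chromosome 1 at 28516519 to 28517896. The members on that chromosome lie 27.7 Mb (*2A6*), 22.4 Mb (AT1G17665), 21.0 Mb (AT1G21540) and 10.7 Mb (AT1G48180) from it. None of the named members lies within 2 Mb of *ASK1*, where 523 named probe sets had a median ratio of -0.02 and 292 had a ratio below 0. Windows of 1 Mb and 4 Mb held none either. Over all nuclear probe sets 0.0794% were members, so counts of 0 in these windows are near that share. Nothing is read from them. The 10 members without a gene name have no position here and are outside these counts.

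Neighbors were sought for the 10 nuclear members with a single gene, AT2G07695 and AT2G07708 included. The nearest gene with a named single-gene probe set on each side gave 20 neighbors, of which 0 were members. Members were 0.0794% of nuclear probe sets, so nothing is read from this 0. Unnamed probe sets, 38.4% of all, were not searched, so closer genes may have been passed over. Distances between starts reached 34.8 kb. Probe sets that the annotation pairs with several genes were not counted as neighbors. The counted probe sets of AT2G07707 and AT2G07713 are nevertheless of the type marked as shared between transcripts. On chromosome 2 probe sets paired with several genes lie closer to AT2G07695, namely that of *rps7* and AT2G07696 (ratio -0.43) and the member of *atp1* and AT2G07698. The ratios of the 20 ranged from -0.65 (AT1G03400) to 0.41, with a median of -0.06. AT1G21530, whose start is 3.30 kb from that of AT1G21540, had a ratio of -0.05 at a mean signal of 3.71, close to background.

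The lowest ratios of the group were among the 10 members without a gene name, though not all of these lay below the named members. Probe set 262676_at had 7.39, 7.24 and 8.09 in *ask1* and 12.25 and 12.19 in L*er*, a ratio of -4.65 (25.1-fold lower). Probe set 264953_at had 5.89, 6.17 and 5.81 in *ask1* and 8.47 and 8.91 in L*er*, a ratio of -2.73 (6.65-fold lower). Only these and 251155_at had a gap of at least 1 between the closest arrays. Probe set 251155_at had 7.79, 7.94 and 7.70 in *ask1* and 9.14 and 9.74 in L*er*, a ratio of -1.63. Probe set 261285_at had 6.50, 7.14 and 6.42 in *ask1* and 7.84 and 8.52 in L*er*, and 259244_at had 6.85, 7.61 and 6.91 in *ask1* and 8.18 and 8.72 in L*er*. In both of these *ask1* replicate 2 stood closest to L*er*. Probe set 254073_at had 8.57, 9.19 and 8.77 in *ask1* and 9.90 and 9.71 in L*er*, again with *ask1* replicate 2 highest among the mutants. The other 4 had ratios from -0.87 to -0.66.

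**Figure D4:**
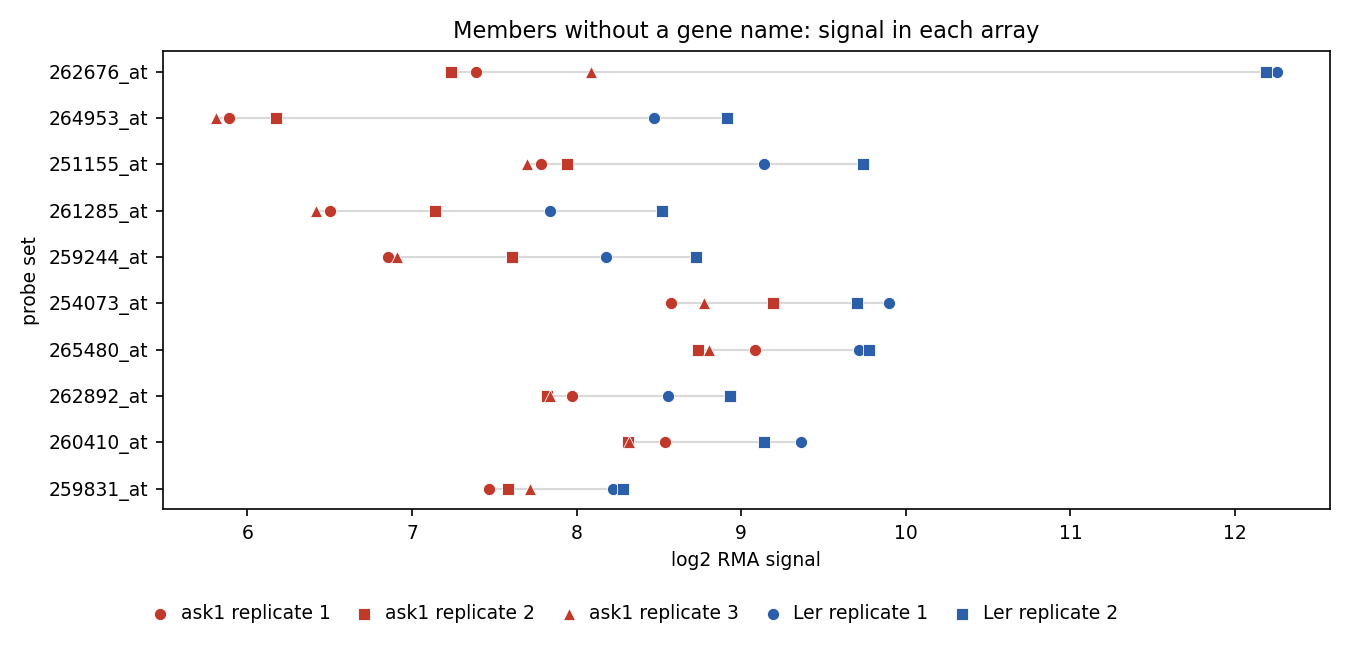
Log2 RMA signal (horizontal axis) of the 10 members without a gene name, by row, in *ask1* replicates 1 to 3 (red circle, square and triangle) and L*er* replicates 1 and 2 (blue circle and square). The distance between genotypes is largest in 262676_at, where the *ask1* signals lie at 7.24 to 8.09 and the L*er* signals at 12.19 to 12.25.

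At the edge of the group the choice was narrow. Just inside lay AT5G49170 with a gap of 0.50 between its closest arrays, and AT1G21540 and *rpl16* with 0.51. Just outside lay AT3G53360 with 0.48 (5.47, 5.38 and 5.43 in *ask1*, 5.95 and 6.05 in L*er*). *psaA*, a core subunit of photosystem I in the plastid genome, was outside with 0.47 (11.19, 11.08 and 11.01 in *ask1*, 11.66 and 11.87 in L*er*), and so was AT1G20530 with 0.47 (4.53, 4.55 and 4.50 in *ask1*, 5.07 and 5.02 in L*er*). Apart from the genes left out by name, a single named probe set was excluded only by the limit on the L*er* difference. It was AT2G42140, whose L*er* signals differed by 0.93. AT4G33980, left out by name, also failed only that limit.

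The mirror criteria, with every *ask1* array at least 0.5 above every L*er* array and the same limit on the L*er* difference, were met by 104 probe sets. None of these was from the plastid genome, and none matched a mitochondrial gene. Of all 22746 probe sets 77 are plastid and 30 mitochondrial, so counts of 0 are near these shares and nothing is read from them. Without the limit on the L*er* difference, 114 probe sets met the mirror criteria, among them 1 plastid gene, *ndhF*. It had 6.49, 6.54 and 6.48 in *ask1* and 5.09 and 5.95 in L*er*.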

How the data were processed

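RNA of 3 *ask1* and 2 L*er* bud samples was measured on ATH1 arrays. The deposited values are log2 signals that the authors made with RMA, which corrects background, normalizes the arrays by quantiles and summarizes each probe set. The RMA version is not given in the sources used here. All 22746 probe sets were kept. Genes were named from the platform annotation, and positions are those of RefSeq TAIR10.1 (Columbia), matched by gene ID, or by symbol for mitochondrial genes. Replicates are labelled as biological. A ratio is the difference of mean log2 signals. The background counts come from limma (version 3.58.1, under R 4.3.3), with lmFit, eBayes (2-sided) and Benjamini-Hochberg adjustment across all probe sets, and scripts were tested on simulated data. Every single-gene member is named, with signals per array, as are up to 6 unnamed members and the 3 named probe sets on each side of the gap limit. Members and gene lists were chosen with earlier results of these data known. Alternatives were other gap and L*er* limits, centering, quantile normalization, a filter on dim probe sets, a single probe set per gene, limma-trend, array weights, a replicate block, the methods' t-test and the omission of each array. No sequences were analysed here.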

Additional observations from a re-analysis of the deposited data

How the results depend on the processing

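The group of 28, with 5 from the plastid genome, grew to 109 probe sets with a gap of 0.3, of which 14 were plastid. With a gap of 1 it shrank to 3, of which 0 were plastid. It held 21 after each array was centered on its median (19 shared with the 28, 3 plastid). After quantile normalization it held 23 (22 shared, 4 plastid). Omission of single arrays gave 37 to 344 probe sets, reaching 344 when *ask1* replicate 2 was dropped, 149 for L*er* replicate 1 and 322 for L*er* replicate 2. Dropping an array loosens the criteria by construction, so all 28 stayed in each time. The count of 2 lower probe sets at limma's adjusted p under 0.05 was 0 with the methods' t-test, 1 after quantile normalization and 1 with the replicate block, and 0 to 211 when single arrays were omitted, with 211 when *ask1* replicate 2 was dropped, 5 for L*er* replicate 2, 1 for *ask1* replicate 3 and 0 for *ask1* replicate 1 or L*er* replicate 1. The 29 at least 2-fold lower at an unadjusted p under 0.05 became 10 with the methods' t-test, 90 with array weights, 66 with the replicate block and 20 to 189 when single arrays were omitted (189 for *ask1* replicate 2, 144 for L*er* replicate 2 and 51 for L*er* replicate 1). Of the members, 8 to 11 met these criteria when single arrays were omitted, and 9 with the block. Deviations of arrays with the same replicate number correlated at -0.26 and -0.01. With 2 L*er* arrays this cannot decide whether the numbers stand for a pairing, which the labels do not state. Of 144 alternative ratios of the 18 gene-paired members, 132 moved by less than the spread between replicates, 12 moved further, each when an L*er* array was left out, and 0 changed sign, which the criteria make certain for most settings. The median ratio of plastid probe sets was -0.26 after centering and -0.25 after quantile normalization, and -0.29 to -0.12 when single arrays were omitted. That of mitochondrial probe sets was -0.36 to -0.25. These alternatives for the organelle medians, and those for gene list medians, were chosen after seeing the data. The causes were not tested. Promoter motifs were planned and were not run, because no sequence was used. With 2 L*er* arrays the wild-type spread is poorly known, and signals under 5 limit ratios.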

Other observations

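None of the 14 members paired with a single gene belonged to the lists of other gene groups considered for this tissue. The 10 members without a gene name and the 4 paired with several genes could not be matched to these lists. Most listed genes have no named probe set here, so a listed gene among those members would be missed. The absence of single-gene members is also partly set by the exclusions, since *HIS1-3* of the histone list met the criteria and was left out by name. AT4G33980 of the cold list was also excluded by name but did not meet the criteria. limma called 0 of the measured genes of the lists at an adjusted p under 0.05. The methods' t-test, adjusted in the same way, called 0 of all probe sets lower. At an unadjusted p under 0.05 limma called 2 lower among cold and abscisic acid genes, 2 among linker and variant histones and 1 among meiosis genes, and 0 in the others. Over all probe sets 679 (2.99%) were lower at that p, and the lists are too small to set their shares against it. Of 31 SCF subunits and F-box receptors, 6 were measured, 4 with a ratio below 0, and the median was -0.07. *SLY1*, an F-box gene of gibberellin signaling, had the lowest ratio (-0.22) and *SK18* the highest (0.35). Medians near 0 changed sign when single arrays were omitted, from -0.29 to 0.22 for hypoxia genes and from -0.04 to 0.04 for late pollen genes. The 7 late pollen genes measured had a median of 0.01, the 7 hypoxia genes -0.01, the 5 meiosis genes -0.21 (-0.04 without *ask1* replicate 2), the 3 floral organ identity genes -0.08 and the 3 histone genes -0.30. The single photosynthesis gene measured, *RCA*, is given above.

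Lower medians stood in other lists, with no single-gene member of the group among their measured genes. The 5 tapetum and pollen coat genes had a median ratio of -0.64, 0.05 when L*er* replicate 1 was dropped and -1.32 for L*er* replicate 2, with *A9* at 8.98, 8.62 and 9.38 in *ask1* and 11.46 and 8.31 in L*er*, high in L*er* replicate 1 alone. The 7 cold and abscisic acid genes had a median of -1.47, -0.61 when L*er* replicate 2 was dropped and -2.71 for L*er* replicate 1. *COR15A* read 7.05, 4.94 and 6.40 in *ask1* and 6.95 and 8.43 in L*er*, so *ask1* replicate 1 lay above L*er* replicate 1. The 5 sugar starvation and dormancy genes had a median of -2.08, which was -3.36 without *ask1* replicate 2, and AT3G15630 read 8.10, 11.97 and 8.12 in *ask1* and 11.36 and 11.59 in L*er*, with *ask1* replicate 2 at the wild-type level.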
